A study of Mus musculus with 24 samples.

Results

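The Frizzled family comprises 10 receptor genes in the mouse, Fzd1 to Fzd10, and all 10 were found by symbol among the 24346 genes listed for each of 24 colorectal RNA-seq libraries. Every animal had received AOM/DSS, azoxymethane, which is a carcinogen, and dextran sulfate sodium, which inflames the colon, a pair used to produce colon tumors. Tissue pieces were labelled tumor (14 libraries) or normal (10 libraries), so the normal tissue was also exposed to AOM/DSS. The genotype was labelled c-MAF_KO or WT. The KO-labelled tumors were named by a number and a zygosity word, as KO-8-homo (3 libraries), KO-8-hetero (3) and KO-1-hetero (3), and the WT-labelled tumors by an age word, as WT-young (4) and WT-old (1). Each of the 5 names also had 2 normal libraries. The labels do not explain the numbers 1 and 8, give no age in weeks, and do not name the cells that lack c-Maf, the strain or the animal behind each piece. The p-values below therefore measure the spread between these libraries, some of which may share an animal. Hetero and homo libraries are pooled under the KO label, and the age words occur under the WT label only, while the age of the KO-labelled animals is not given, so genotype and age cannot be told apart in any comparison of the labels.

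Frizzled proteins are membrane-spanning receptors whose cysteine-rich outer domain binds lipid-modified Wnt ligands. With the co-receptors Lrp5 or Lrp6 they recruit Dishevelled, which stops the destruction of beta-catenin and lets it act with TCF factors in the nucleus, and other Frizzled signals reach the cytoskeleton without beta-catenin. In the colon this pathway maintains stem cells at the crypt base, and most colon tumors carry changes that activate it downstream of the receptors. The ubiquitin ligases Rnf43 and Znrf3 remove Frizzled proteins from the cell surface, and R-spondins bound to Lgr receptors block that removal.

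The family was chosen by the values of Fzd1, which had stood out between KO-labelled and WT-labelled tumors in earlier work on these data. That contrast is therefore described here without a test for every member. For Fzd1 the differences between tumor and normal tissue and between KO-labelled tumor groups rest on the same tumors. They are also given without a test. Levels are in FPKM, fragments per kilobase of transcript corrected for library size, as the authors deposited them. Differences are on the log2(FPKM + 1) scale, on which changes of low genes come out too small, and they were tested with limma across 13799 genes that reached 1 FPKM in at least 4 libraries. Of the 10 Frizzled genes, 9 passed this filter. Fzd3 did not and is described by its levels.

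Between 12074 and 13290 genes reached 1 FPKM, and relative depth, read from the steps between low values, ran from 0.683 to 1.87 times that of the median library. Xist, the transcript of the inactive X chromosome, was at 7.38 to 49.9 FPKM in 6 libraries and at most 0.0719 FPKM in the other 18. The 6 were all hetero libraries with the KO label: both normals of KO-8-hetero and of KO-1-hetero, and replicate 3 of each of these tumor groups. Leaving these 6 out leaves KO-8-homo as the only KO-labelled normal tissue, so zygosity word and name then change together with Xist. Maf, the targeted gene, was not lower under the KO label: KO-labelled tumors had 2.62 to 7.40 FPKM, the WT-old tumor 7.26 FPKM and WT-young tumors 1.63 to 2.26 FPKM, while normal tissue had 1.52 to 6.27 FPKM under the KO label and 1.37 to 2.82 FPKM under the WT label. The files do not show which exons the fragments came from, so this is no check of a partial deletion, and "KO-labelled" refers to the label throughout. The 6 epithelial markers (Epcam, Cdh1, Krt8, Krt18, Vil1 and Cldn7) summed to 2785 to 7532 FPKM in tumors and 4010 to 8886 FPKM in normal tissue, so epithelium was present in both.

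The 10 genes lie on 7 chromosomes of GRCm38 (GENCODE M21), and 6 of them consist of 1 exon: Fzd1 (chr5:4753839-4758035, minus strand), Fzd2 (chr11:102604396-102608058, plus), Fzd7 (chr1:59482424-59486955, plus), Fzd8, Fzd9 (chr5:135248938-135251230, minus) and Fzd10 (chr5:128600844-128604093, plus). Fzd4 (chr7:89404355-89413134, plus) and Fzd5 (chr1:64730558-64737751, minus) have 2 exons in their longest coding transcript. Fzd3 (chr14:65192449-65262463, minus) and Fzd6 (chr15:39006034-39038188, plus) have 7. Fzd5 overlaps Gm38058 and Fzd6 overlaps Gm26704, both on the opposite strand, and Fzd3 overlaps Gm27263 and Gm9086. The library kit preserves strand, but the strand setting of the authors' counting is not given in the sources used here, so reads shared with those loci are uncertain.

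Promoters were matched for 6 of the 10 genes in the RefSeq table of GRCm38.p6. The 250 bases before the start are shown for Fzd1, the highest member in most tumors, for Fzd5, the highest in most normal tissue, and for Fzd10, whose tumors were above normal tissue under most names. Capitals mark matches to CTTTGA or CTTTGT on either strand, the core letters bound by TCF factors. Fzd1 lies at chr5:4758217-4758466 on the minus strand, Fzd5 at chr1:64737751-64738000 on the minus strand and Fzd10 at chr5:128600856-128601105 on the plus strand, and all are written 5′ to 3′ along the gene. Distances are from the RefSeq start, which differs from the GENCODE start of these genes. The Fzd10 stretch lies wholly inside its GENCODE gene, so by that annotation it is transcribed sequence. Of the matched members not shown, the stretches of Fzd9 and Fzd4 lie partly inside theirs.
Fzd1: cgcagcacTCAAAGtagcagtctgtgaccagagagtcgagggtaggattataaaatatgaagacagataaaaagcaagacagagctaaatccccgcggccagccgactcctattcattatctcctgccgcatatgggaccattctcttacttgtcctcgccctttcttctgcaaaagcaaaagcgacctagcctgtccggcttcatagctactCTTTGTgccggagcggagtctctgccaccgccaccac
Fzd5: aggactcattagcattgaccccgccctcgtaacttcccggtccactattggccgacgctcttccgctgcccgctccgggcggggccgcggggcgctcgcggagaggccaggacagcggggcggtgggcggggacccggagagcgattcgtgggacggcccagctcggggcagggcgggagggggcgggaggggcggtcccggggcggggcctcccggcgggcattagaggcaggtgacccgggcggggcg
Fzd10: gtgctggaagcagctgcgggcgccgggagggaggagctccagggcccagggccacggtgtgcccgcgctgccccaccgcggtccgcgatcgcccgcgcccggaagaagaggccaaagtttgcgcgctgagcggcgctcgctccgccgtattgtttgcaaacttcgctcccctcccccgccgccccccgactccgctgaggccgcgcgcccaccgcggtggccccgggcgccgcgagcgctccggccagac
The Fzd1 sequence held TCAAAG, the reverse complement of CTTTGA, 242 bases before the start and CTTTGT 37 bases before it, and neither the Fzd5 nor the Fzd10 sequence held a match. Among 32851 promoters of the same length, 13.8% held CTTTGA and 16.5% held CTTTGT on either strand. The motifs share their leading letters and cannot both match at the same place on a strand. Of the other matched members, Fzd7 held ACAAAG, the reverse complement of CTTTGT, 129 bases before its start, and Fzd4 and Fzd9 held neither. TGCTGA, the core letters of the Maf recognition element, was in none of the 6 sequences and in 16.1% of all promoters. GC content was 51.2% for Fzd1 against 65.2% for Fzd7, 72.8% for Fzd4 and 76.4% for each of Fzd5, Fzd9 and Fzd10. The median of all promoters was 52.4% with quartiles of 45.2% and 61.2%, so Fzd1 alone of the 6 was below that median. These are matches of letters and do not show that a factor was bound.

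Fzd5 was the most abundant Frizzled transcript in most normal libraries and Fzd1 in most tumors. The lead of Fzd1 is a description, since it rests on the tumor values by which the gene was chosen. Fzd5 was the highest of the 10 in 9 of 10 normal libraries and in 1 of 14 tumors. Fzd1 was the highest in 1 normal library and in 11 tumors, and Fzd6 in the other 2 tumors. As a share of the summed FPKM of the family, Fzd5 was 36.0% ± 7.88 in normal tissue (SD, n = 10) and 19.5% ± 6.11 in tumors (SD, n = 14), and Fzd1 was 19.1% ± 4.27 and 30.4% ± 4.55 in the same order. Fzd6 made up 8.47% ± 2.21 in normal tissue and 16.7% ± 6.55 in tumors. Fzd7 differed little by this measure, at 9.94% ± 2.50 and 10.5% ± 3.07. These shares add to a whole, so a rise of 1 member lowers the others.

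The summed level of the family was 35.9 ± 6.10 FPKM in KO-labelled normal tissue (SD, n = 6), 40.1 ± 3.87 in WT-labelled normal tissue (SD, n = 4), 37.8 ± 5.96 in KO-labelled tumors (SD, n = 9) and 27.9 ± 3.42 in WT-labelled tumors (SD, n = 5). The lowest sum of all libraries, 22.1 FPKM, was in the WT-old tumor, and the highest, 52.2 FPKM, was in KO-8-hetero tumor replicate 2, where Fzd6 was the leading member.

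**Figure D1:**
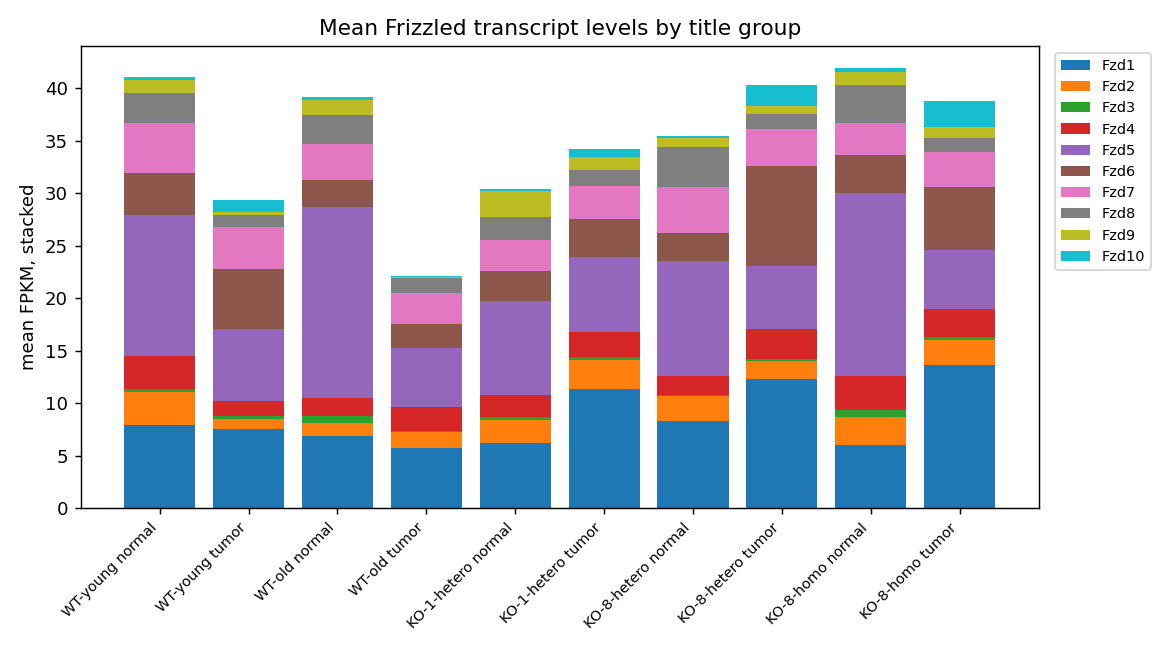
Mean FPKM of the 10 Frizzled genes, stacked, for each of the 10 title groups (1 to 4 libraries each, no error shown). The Fzd5 segment is the tallest in the normal tissue of every name and the Fzd1 segment the tallest in every tumor group (in the WT-old tumor level with Fzd5 at 5.70 FPKM), with the WT-old tumor at the lowest total of 22.1 FPKM.

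Between tumor and normal tissue, 8 members were tested. In the WT-labelled libraries 3 of these 8 fell in tumors (Fzd5, Fzd8 and Fzd9) and 0 rose, where 30.4% of all 13799 genes were called, 15.5% as higher and 14.8% as lower. In the KO-labelled libraries 2 fell (Fzd5 and Fzd8) and 2 rose (Fzd6 and Fzd10), where 47.2% of all genes were called, 24.1% as higher and 23.2% as lower. The share of members called was close to that of all genes in both. Fzd10 passed the filter only through tumors, so its place among the risers depends on the tissue where it was high. The median difference of the 8 was -0.43 in WT-labelled libraries beside 0.02 for all genes, and -0.06 beside 0.02 in KO-labelled libraries. The KO-label tests, and the share of all genes beside them, are unbalanced for Xist. It was high in 4 of 6 KO-labelled normal libraries and in 2 of 9 KO-labelled tumors. Tissue and what Xist marks cannot be fully told apart there. These are bulk tissue pieces, so fewer cells of a type and less RNA per cell cannot be told apart for any member.

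**Figure D2:**
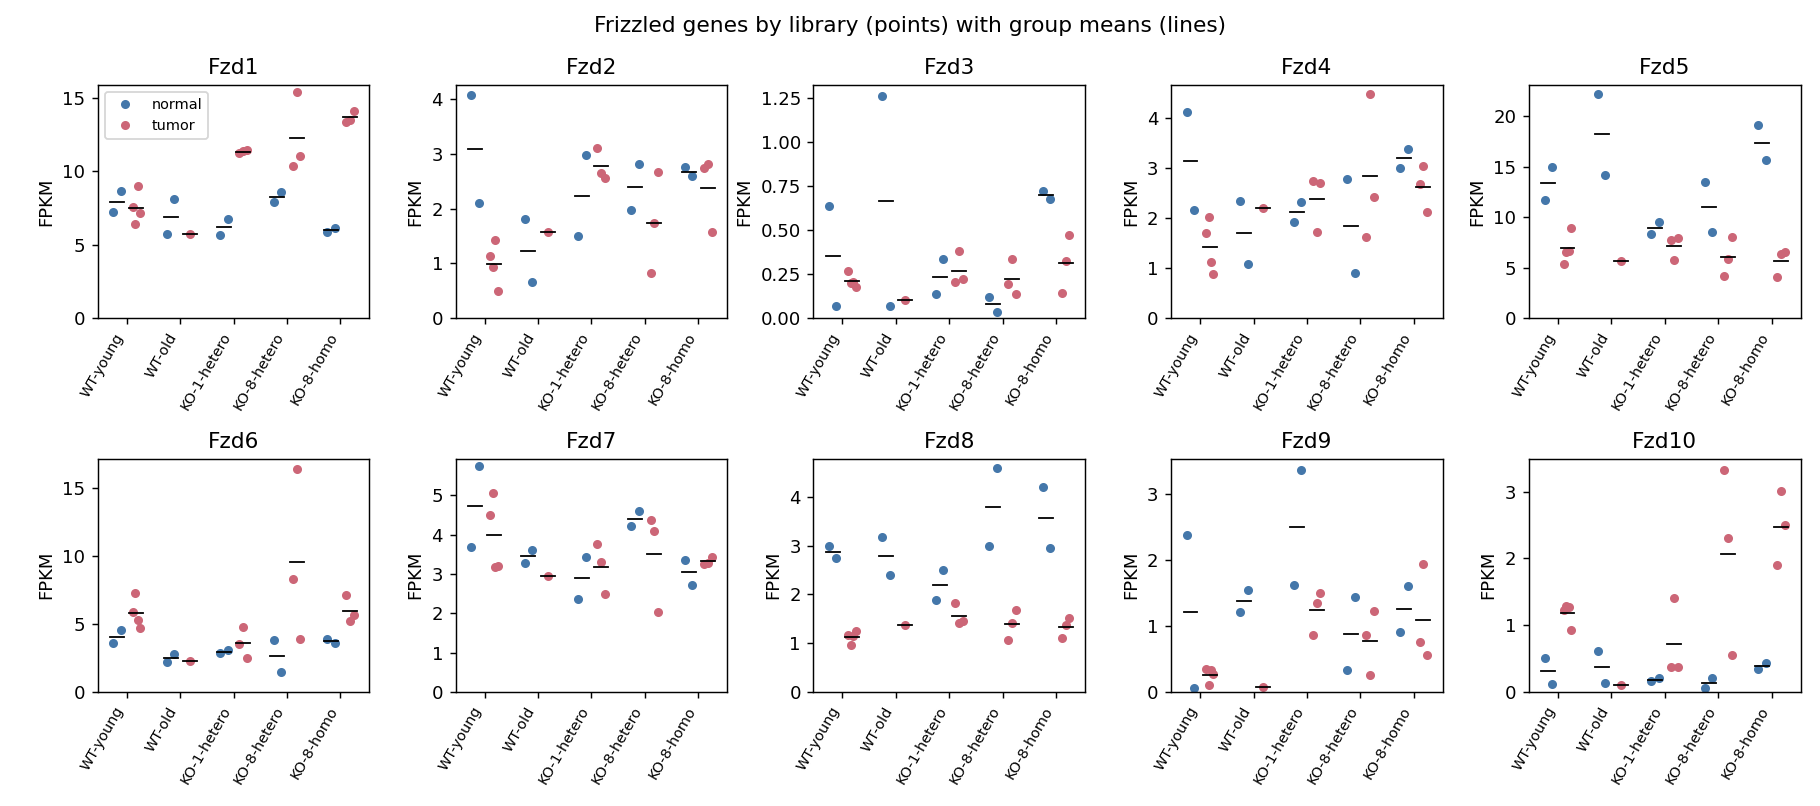
FPKM of each Frizzled gene in each of the 24 libraries (points; blue normal, red tumor) with the group mean as a line, by title name; each panel has its own linear axis from 0. All tumors lie below both normal libraries of the same name for Fzd5 and Fzd8, and Fzd1 tumors lie above the normal libraries in the 3 KO-labelled names.

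**Figure D3:**
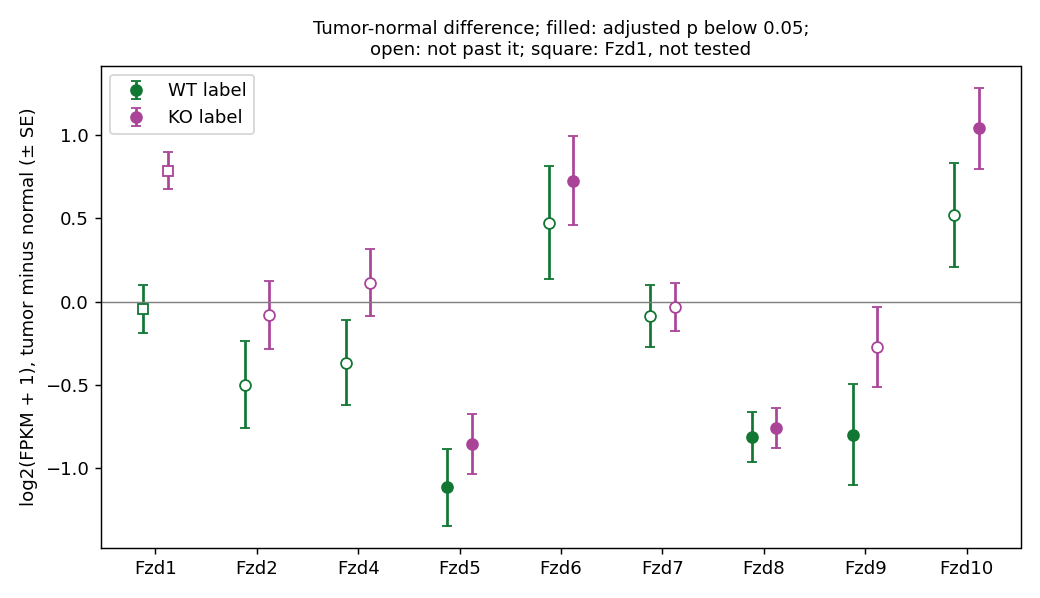
Difference between tumor and normal tissue on the log2(FPKM + 1) scale with its standard error for the 9 members that passed the filter, by genotype label. Filled points passed a limma adjusted p of 0.05, open points did not, and Fzd1 is drawn as a square because it was not tested; Fzd5 and Fzd8 lie below 0 with filled points under both labels.

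Fzd1, Fzd2 and Fzd7 form the subfamily most alike in sequence, and in the gut Fzd7 is known as a receptor of the intestinal stem cell. Fzd1 is a receptor for Wnt3a and related ligands. The Fzd1 level of tumors was 13.4, 13.5 and 14.1 FPKM for KO-8-homo, 10.3, 15.4 and 11.1 for KO-8-hetero, and 11.2, 11.3 and 11.4 for KO-1-hetero. WT-young tumors had 7.54, 6.38, 8.98 and 7.17 FPKM and the WT-old tumor 5.70. Every KO-labelled tumor was above every WT-labelled one, the lowest of the former being 10.3 FPKM and the highest of the latter 8.98 FPKM. Their means of 12.4 ± 1.71 (SD, n = 9) and 7.15 ± 1.24 FPKM (SD, n = 5) gave a ratio of 1.73 and a difference of 0.72 on the log2(FPKM + 1) scale. Of all 13799 genes, 0.152% were higher and 0.449% lower in all KO-labelled tumors without overlap, and since Fzd1 was chosen by this contrast nothing is read from it.

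Normal tissue played no part in that choice. Normal Fzd1 levels were 5.84, 6.15, 7.88, 8.60, 5.63 and 6.70 FPKM in the KO-labelled libraries (KO-8-homo, KO-8-hetero and KO-1-hetero in pairs) and 5.69, 8.11, 7.21 and 8.63 in the WT-labelled ones (WT-old, then WT-young). The ranges overlapped almost wholly, and the difference of KO from WT was -0.11 (SE 0.137, limma adjusted p = 1). No gene was called in that comparison (0% of 13799 by limma, with 645 genes and 0 members at an unadjusted p under 0.05). None of the 9 members was called. The tumor-normal difference of Fzd1 was 0.79 (SE 0.112) under the KO label and -0.04 (SE 0.143) under the WT label, as descriptions that rest on the tumors for which the gene was chosen. By name it was 1.07 in KO-8-homo, 0.50 in KO-8-hetero and 0.79 in KO-1-hetero, in each of which all 3 tumors were above both normal libraries. It was -0.07 in WT-young and -0.22 in WT-old, where they were not. How many of all genes had this pattern was not counted.

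Within the KO label the Fzd1 differences by zygosity word and title number also rest on the tumors by which the gene was chosen. They are given without a test. KO-8-homo tumors were above KO-8-hetero tumors by 0.16 (SE 0.149). None of the other tested members was called in that comparison, where 0.0507% of all genes were. The Fzd1 difference of KO-1-hetero from KO-8-hetero tumors was -0.09 (SE 0.149). The 2 KO-labelled tumors with high Xist had Fzd1 at 11.1 and 11.4 FPKM, within the range of the other 7. The part of Xist-linked differences in the Fzd1 levels was not tested further than by leaving those libraries out, where the KO and WT tumors differed by 0.76.

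Markers of other cell types varied between the tumors as well. The summed FPKM of 7 smooth muscle markers was 244 to 1305 in KO-labelled tumors, 177 to 377 in WT-young tumors and 2898 in the WT-old tumor. The leukocyte sum of 5 markers was 581 FPKM in the WT-old tumor, 30.4 to 52.6 in WT-young and 43.1 to 123 in KO-labelled tumors. Over the 14 tumors Pearson's r of Fzd1 with these summed lists on the log scale was 0.18 for smooth muscle, 0.32 for fibroblast, 0.36 for endothelium, 0.00 for epithelium, 0.60 for enteric neurons and glia and -0.26 for leukocytes. These points share their library, depth and genotype label. The part of cell makeup in the Fzd1 levels was not tested.

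Fzd2 is a receptor linked to Wnt5a and mesenchymal cells. Its levels were low, at 2.74, 2.82 and 1.58 FPKM in KO-8-homo tumors, 0.830, 1.74 and 2.67 in KO-8-hetero and 3.10, 2.65 and 2.57 in KO-1-hetero, by replicate. WT-young tumors were at 1.13, 0.927, 1.43 and 0.491 FPKM and the WT-old tumor at 1.57. Of the 9 KO-labelled tumors, 8 were above every WT-labelled tumor and KO-8-hetero replicate 1 was not, with means of 2.30 ± 0.745 and 1.11 ± 0.429 FPKM. KO-8-homo replicate 3, at 1.577 FPKM, was almost level with the WT-old tumor at 1.575. The share of all genes with such a split was not counted, so nothing is read from it. Normal tissue spanned 0.651 to 4.09 FPKM and overlapped both. The tumor-normal difference did not pass the test under the WT label (-0.50, SE 0.261, limma adjusted p = 0.147) and was smaller under the KO label (-0.08, SE 0.205, adjusted p = 0.762). Without the WT-old libraries the former was -1.02 (adjusted p = 0.0186), and without WT-old normal replicate 2, the lowest normal library, -0.77 (adjusted p = 0.0254). In normal tissue KO and WT labels differed by 0.22 (SE 0.251, limma adjusted p = 1), which was -0.23 without the WT-old libraries and -0.06 without WT-old normal replicate 2. Over the 10 normal libraries r of Fzd2 was 0.89 with the smooth muscle sum, 0.81 with enteric neurons and glia, 0.71 with endothelium and 0.69 with fibroblast. Over the 14 tumors these were 0.52, 0.60, 0.49 and 0.34.

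Fzd7 varied little, at 3.58 ± 0.864 FPKM over all libraries (SD, n = 24). It ranged from 2.04 to 5.07 FPKM in tumors (median 3.29) and from 2.35 to 5.75 in normal tissue (median 3.53). Tumor and normal tissue overlapped under each label, and the differences were -0.09 (SE 0.184, limma adjusted p = 0.747) and -0.03 (SE 0.144, adjusted p = 0.866) for WT and KO. The KO-labelled tumors averaged 3.34 ± 0.731 FPKM (SD, n = 9) and the WT-labelled ones 3.79 ± 0.945 (SD, n = 5). The mean of the KO-labelled tumors was thus the higher for Fzd1 and Fzd2 and the lower for Fzd7. Over the 10 normal libraries r of Fzd1 with Fzd7 was 0.85, and over the 14 tumors it was -0.19, as descriptions of libraries that share depth and tissue.

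Fzd5 and Fzd8 form a subfamily of receptors that work with Lrp5 and Lrp6, and Fzd5 is known to be needed for Paneth cell maturation in the small intestine. Fzd5 fell in tumors under both labels. Normal tissue had 11.7 and 14.999 FPKM in WT-young, 22.2 and 14.2 in WT-old, 19.1 and 15.7 in KO-8-homo, 13.4 and 8.53 in KO-8-hetero and 8.30 and 9.54 in KO-1-hetero. The tumors lay between 4.04 and 8.96 FPKM with a median of 6.46. The highest tumor, WT-young replicate 4, was above 2 normal libraries, KO-1-hetero replicate 1 and KO-8-hetero replicate 2, and the other tumors were below all normal tissue. The difference was -1.11 (SE 0.231, limma adjusted p = 0.00123) under the WT label and -0.85 (SE 0.181, adjusted p = 0.000683) under the KO label.

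The fall of Fzd5 was seen within every name: it was -0.87 in WT-young, -1.49 in WT-old, -1.48 in KO-8-homo, -0.78 in KO-8-hetero and -0.29 in KO-1-hetero, and all tumors lay below both normal libraries in each of the 5. Of all genes 6.73% had this pattern. The names differed more in normal tissue than in tumors: name means ran from 8.92 to 18.2 FPKM in normal tissue and from 5.66 to 7.13 FPKM in tumors. The 4 KO-labelled normal libraries with high Xist were at 8.30 to 13.4 FPKM and the 2 with low Xist at 15.7 and 19.1. Between labels in normal tissue Fzd5 differed by -0.35 (limma adjusted p = 1), and by 0.16 (adjusted p = 0.979) without the high-Xist libraries. Without those libraries Fzd5 fell in tumors by 1.46 under the KO label, with the 2 KO-8-homo libraries as the only KO-labelled normal tissue left. Xist, zygosity word and name change together in both of these fits. The part of what Xist marks was therefore not tested.

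Fzd8 separated the tissues completely. Its 14 tumors were at 0.953 to 1.82 FPKM (median 1.37) and its 10 normal libraries at 1.89 to 4.604 FPKM (median 2.97), without overlap, a pattern that 3.43% of all genes showed in this direction and 3.28% in the other. The closest approach was between KO-1-hetero tumor replicate 1 at 1.82 FPKM and KO-1-hetero normal replicate 1 at 1.89. The difference was -0.81 (SE 0.151, limma adjusted p = 0.000563) under the WT label and -0.76 (SE 0.119, adjusted p = 3.57e-05) under the KO label. By name it was -0.96 in KO-8-homo, -0.99 in KO-8-hetero, -0.32 in KO-1-hetero, -0.86 in WT-young and -0.67 in WT-old. Over the 24 libraries Fzd5 and Fzd8 had r = 0.81, which was 0.53 within the tumors and 0.25 within the normal tissue.

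Smooth muscle fell with Fzd8. All 7 smooth muscle markers (Acta2, Myh11, Cnn1, Des, Actg2, Tagln and Smtn) were called lower in tumors under both labels, where 14.8% of all genes were called lower under the WT label and 23.2% under the KO label. Their summed level was 177 to 2898 FPKM in tumors (median 521) and 932 to 7150 in normal tissue (median 3008), and r of Fzd8 with it was 0.82 over 24 libraries, 0.60 over the tumors and 0.48 over the normal tissue. In the WT-old tumor, whose smooth muscle sum of 2898 FPKM lay within the range of normal tissue, Fzd8 was at 1.37 FPKM, below every normal library. For Fzd5 the r with the same sum was 0.63 over all libraries and 0.02 over the tumors, and with the sum of 6 fibroblast markers it was -0.71 over all libraries. Fibroblast markers summed to 293 to 1132 FPKM in tumors and 181 to 537 in normal tissue, and in KO-labelled tumors 4 of 6 were called higher and 1, Lum, lower, beside 24.1% and 23.2% of all genes. In WT-labelled tumors 1 of 6 was called higher, beside 15.5% of all genes, and 0 lower. The part of muscle or fibroblast content in the fall of either gene was not tested.

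Fzd9 and Fzd10 form a further subfamily, and both were near or below 1 FPKM in many libraries. Fzd9 is best known from brain and bone. In tumors it was at 0.250 to 1.94 FPKM under the KO label (median 0.866, n = 9) and 0.0705 to 0.344 under the WT label (median 0.266, n = 5), and 8 of the 9 KO-labelled tumors were above all WT-labelled ones. KO-8-hetero tumor replicate 2 was the exception at 0.250 FPKM. The share of all genes split in this way was not counted. Normal tissue spanned 0.0550 to 3.38 FPKM, and 1 WT-young normal library held the lowest value of all and the other 2.38. The difference under the WT label was -0.80 (SE 0.304, limma adjusted p = 0.0495), and under the KO label -0.27 (SE 0.238, adjusted p = 0.358). The WT-label call was kept in 4 of 8 other settings and in 1 of 9 fits without a library, with an adjusted p as high as 0.324 without the WT-old libraries. Whether the tumor-normal difference of Fzd9 depended on the label did not pass the test (interaction 0.53, SE 0.386, adjusted p = 0.986), and 0 of 8 members passed it, where 0% of all genes did (654 genes and 0 members at an unadjusted p under 0.05).

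Fzd10, a receptor that is low in most adult tissue, rose in KO-labelled tumors. In normal tissue it was at 0.0561 to 0.605 FPKM (median 0.206, n = 10), so none reached 1 FPKM. It passed the filter only through tumors, of which 9 of 14 reached 1 FPKM, so its entry to the test depended on them. Among tumors it was at 1.90, 3.002 and 2.50 FPKM in KO-8-homo, 3.33, 2.31 and 0.557 in KO-8-hetero, 0.373, 1.41 and 0.373 in KO-1-hetero, and 1.22, 1.28, 1.28 and 0.926 in WT-young. The WT-old tumor was the exception at 0.0971 FPKM, below both of its normal libraries (0.605 and 0.133). The tumor-normal difference was 1.04 (SE 0.245, limma adjusted p = 0.00165) under the KO label and 0.52 (SE 0.312, adjusted p = 0.208) under the WT label. The difference between these did not pass the test (interaction 0.52, SE 0.397, adjusted p = 0.986). In 4 of the 5 names every tumor was above both normal libraries, by 1.31 in KO-8-homo, 1.31 in KO-8-hetero, 0.49 in KO-1-hetero and 0.74 in WT-young. In WT-old the value was -0.30 with 1 tumor. Of all genes 7.28% had tumors above normal tissue without overlap in all 5 names, and the share for 4 names was not counted.

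The high-Xist tumors were among the KO-labelled tumors lowest in Fzd10. KO-1-hetero replicate 3 and KO-8-hetero replicate 3, the 2 tumors with high Xist, had 0.373 and 0.557 FPKM, but KO-1-hetero replicate 1 had 0.373 FPKM with low Xist. Without the libraries of high Xist the KO-label difference of Fzd10 was 1.09 (limma adjusted p = 0.0315), with KO-8-homo as the only KO-labelled normal tissue left.

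Fzd4 is the receptor for Norrin in blood vessels, where it acts with Lrp5 and Tspan12. Its levels were 0.880 to 4.49 FPKM in tumors (median 2.17) and 0.892 to 4.13 FPKM in normal tissue (median 2.33), with full overlap. The tumor-normal difference was -0.37 (SE 0.255, limma adjusted p = 0.281) under the WT label and 0.11 (SE 0.200, adjusted p = 0.66) under the KO label. KO-labelled tumors had 2.62 ± 0.849 FPKM (SD, n = 9) and WT-labelled tumors 1.58 ± 0.573 (SD, n = 5), and 6 of the 9 were above all 5. For this split too, the share of all genes was not counted. Fzd4 followed the endothelial markers Pecam1, Cdh5, Kdr, Tek and Emcn, with r of 0.89 over the 14 tumors and 0.96 over the 10 normal libraries, which share depth and cell makeup. The summed level of these 5 was 18.1 to 79.7 FPKM in tumors and 18.6 to 67.0 in normal tissue. Its lowest and highest tumors, WT-young replicate 4 and KO-8-hetero replicate 2, were also the lowest and highest for Fzd4. Over the tumors r of Fzd4 was 0.82 with enteric neurons and glia, 0.74 with fibroblast, 0.66 with smooth muscle, 0.20 with leukocytes and -0.25 with epithelium. Over normal tissue these were 0.71, 0.44, 0.75, 0.15 and -0.84. The part of vessel content in the Fzd4 levels was not tested. Ndp, the gene for Norrin, was at 0 to 0.117 FPKM and did not pass the filter.

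Fzd3 and Fzd6 signal mainly in planar cell polarity, the alignment of cells within a sheet. Fzd3 had the lowest median rank of the 10 in tumors, at 0.1001 to 0.475 FPKM (median 0.204). It was at 0.0346 to 1.26 FPKM in normal tissue (median 0.236), and 1 of the 24 libraries, WT-old normal replicate 1, reached 1 FPKM. The 2 normal libraries of a name could lie far apart, as in WT-old (1.26 and 0.0678 FPKM) and WT-young (0.638 and 0.0680 FPKM).

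Fzd6 rose in KO-labelled tumors and was the most variable of the abundant members. In normal tissue it was at 1.46 to 4.51 FPKM (median 3.31). Among tumors it was at 7.10, 5.19 and 5.65 FPKM in KO-8-homo, 8.33, 16.4 and 3.85 in KO-8-hetero, 3.52, 4.80 and 2.47 in KO-1-hetero, 5.84, 7.28, 5.29 and 4.68 in WT-young and 2.28 in WT-old. The tumor-normal difference was 0.72 (SE 0.268, limma adjusted p = 0.0305) under the KO label and 0.47 (SE 0.342, adjusted p = 0.298) under the WT label, with an interaction of 0.25 (SE 0.435, adjusted p = 0.987). Tumors lay above both normal libraries without overlap in 3 names, KO-8-hetero, KO-8-homo and WT-young. How many of all genes did so in 3 names was not counted. The KO-label call was not firm. Without the high-Xist libraries, which leaves KO-8-homo as the only KO-labelled normal tissue, the difference was 0.68 with an adjusted p of 0.2. Without KO-8-hetero tumor replicate 1, KO-8-hetero normal replicate 2 or KO-8-homo tumor replicate 1 the adjusted p was 0.0557, 0.0898 and 0.0505.

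Fzd6 and Fzd10 varied together among tumors, although they belong to different subfamilies. Over the 14 tumors r was 0.76, with the WT-old tumor low for both and KO-8-hetero replicates 1 and 2 high for both, and over the 10 normal libraries it was -0.16. The difference of KO-1-hetero from KO-8-hetero tumors was -1.04 for Fzd6 (SE 0.338, limma adjusted p = 0.291) and -0.76 for Fzd10 (SE 0.296, adjusted p = 0.375), so neither was called, and 0% of all genes were (1363 genes and 2 members, these 2, at an unadjusted p under 0.05). Without KO-8-hetero tumor replicate 3, the high-Xist library of that group, both were called, at -1.50 (adjusted p = 0.0232) and -1.19 (adjusted p = 0.0301), among 160 genes in all. Without the high-Xist libraries of all groups the adjusted p was 0.126 and 0.167. In the KO-8-homo and KO-8-hetero tumors Fzd6 differed by -0.41 (SE 0.338, adjusted p = 0.963).

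**Figure D4:**
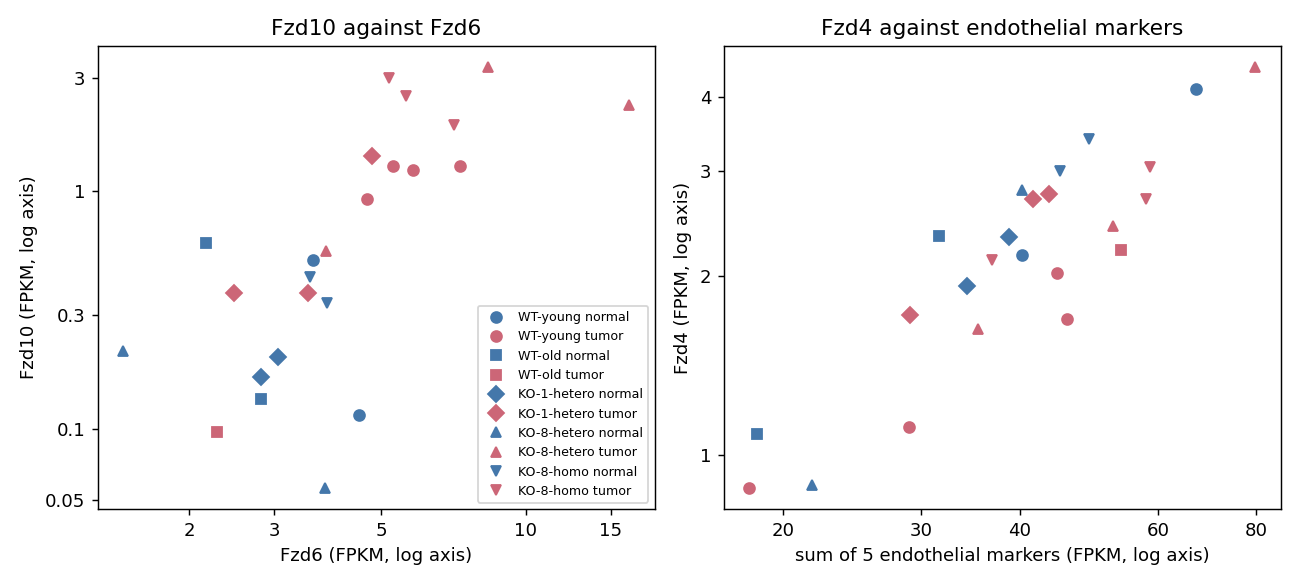
Left, Fzd10 against Fzd6, and right, Fzd4 against the summed FPKM of 5 endothelial markers, for the 24 libraries (log axes; blue normal, red tumor, shape by title name). The WT-old tumor, at 2.28 FPKM of Fzd6 and 0.0971 FPKM of Fzd10, lies apart from the other tumors on the left, and Fzd4 rises with the endothelial sum in both tissues on the right.

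Against the 4 WT-young tumors alone, which removes the WT-old tumor, each KO-labelled name was described in turn. The ratio of mean Fzd1 was 1.82 for KO-8-homo, 1.63 for KO-8-hetero and 1.51 for KO-1-hetero, each without overlap. For the same names the share of all genes that were higher without overlap was 9.81%, 3.04% and 12.6%, and the share that were lower was 11.4%, 4.39% and 14.8%. Fzd2 had ratios of 2.39, 1.75 and 2.79 and Fzd9 of 4.17, 2.99 and 4.77 in that order, both without overlap in KO-1-hetero and KO-8-homo. Fzd10 had ratios of 2.099, 1.75 and 0.611 and Fzd6 of 1.04, 1.65 and 0.623, so KO-1-hetero was the lowest for both. Fzd10 and Fzd4 (ratio 1.84) also lay above WT-young without overlap in KO-8-homo, and Fzd8 (ratio 1.37) in KO-1-hetero. These comparisons share the WT-young tumors. Over all 9 KO-labelled and 5 WT-labelled tumors the log2 difference, given without a test, was 0.70 for Fzd9, 0.63 for Fzd2, 0.48 for Fzd4, 0.41 for Fzd10, 0.18 for Fzd6, 0.15 for Fzd8, -0.09 for Fzd5 and -0.14 for Fzd7. Without the WT-old tumor the Fzd6 value was -0.02. For Fzd5 the KO-labelled and WT-labelled tumor means were 6.27 ± 1.504 (SD, n = 9) and 6.66 ± 1.40 FPKM (SD, n = 5), within ranges of 4.04 to 8.08 and 5.40 to 8.96 FPKM.

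The genes whose pattern was most like each member were ranked by r of log2(FPKM + 1). Over the 14 tumors the genes closest to Fzd1 included Itgb5 (0.85), Fndc3b (0.84), 1810055G02Rik (0.84) and Stard13 (0.84). Over all 24 libraries the 5 closest were Afap1l2 (0.85), Slc26a9 (0.82), Notch4 (0.82), Fetub (0.82) and Cd3eap (0.81), none of which was among the 5 closest over the tumors. Fzd4 was closest to Jam2 (0.94) and 9430020K01Rik (0.94). Fzd5 was closest to Rfk (0.94) and 4833439L19Rik (0.94), and Fzd8 to Inafm1 (0.96) and Clstn1 (0.96). For Fzd6 they were Ppl (0.92) and Fat2 (0.90), and for Fzd10 Plagl1 (0.93) and Dlx3 (0.92). Fzd2 was closest to Fbln1 (0.89) and Islr (0.87). Fzd7 and Fzd9 had looser neighbours, Sugct (0.77) and Klc1 (0.74) for the former and Ceacam10 (0.84) and Fam136a (0.82) for the latter. All of these r values are the highest of 13799 and share tissue and depth between libraries.

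Several ligands of the pathway rose in tumors. Of 20 Wnt ligands and Norrin, 8 passed the filter, and 4 rose in WT-labelled and 5 in KO-labelled tumors, with 0 falling in either, where 15.5% and 24.1% of all genes were called higher. Wnt3, Wnt6, Wnt10a and Wnt16, called higher under both labels, were at most 0.111, 0.993, 0.155 and 0.237 FPKM in normal tissue. They passed the filter only through tumors, so these counts depend in part on the filter. Wnt10a rose by 2.67 (limma adjusted p = 0.00433) under the WT label and by 2.73 (adjusted p = 0.000226) under the KO label, from at most 0.155 FPKM in normal tissue to as much as 20.8 FPKM in tumors. Wnt6 rose by 2.51 (adjusted p = 0.00645) and 2.58 (adjusted p = 0.000376). Wnt3, a ligand that acts through beta-catenin in the crypt, rose by 0.71 (adjusted p = 0.0127) and 1.00 (adjusted p = 4.54e-05). Wnt5a, a ligand of the branch without beta-catenin, rose by 1.74 (adjusted p = 0.000145) under the KO label, while its WT-label difference of 0.80 (adjusted p = 0.131) was not past the threshold.

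Among 7 co-receptors, all of which passed the filter, Ptk7 rose under both labels, by 1.14 (limma adjusted p = 0.0223) and 1.38 (adjusted p = 0.00062), and the other 6 did not pass. Lrp5 was at 5.47 to 20.4 FPKM and Lrp6 at 6.67 to 20.1 FPKM over the 24 libraries. Tspan12, the partner of Fzd4, had differences of 0.91 (adjusted p = 0.0822) and 0.70 (adjusted p = 0.0695). Among the 4 Dishevelled and Smoothened genes none was called under either label. Of all genes 30.4% were called under the WT label and 47.2% under the KO label.

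Some genes of Frizzled turnover rose in tumors. Of 9 genes of this arm, 6 passed the filter, and 4 rose under each label while Lgr4 fell under the KO label by 0.56 (limma adjusted p = 0.0212). Of all genes 15.5% were called higher under the WT label, and 24.1% were called higher and 23.2% lower under the KO label. Lgr6, among the 4, was at most 0.0412 FPKM in normal tissue and passed the filter only through tumors. Its place in the count thus depends on the tissue where it was high. The WT-label difference of Lgr4 was -0.62 (adjusted p = 0.0574). Rnf43 rose by 1.33 (SE 0.487, adjusted p = 0.0424) under the WT label and 1.87 (SE 0.383, adjusted p = 0.000494) under the KO label, reaching 68.2 FPKM in a tumor against at most 14.004 in normal tissue. Znrf3 rose by 1.11 (adjusted p = 0.0344) and 1.35 (adjusted p = 0.00124). Lgr5, the stem cell marker and R-spondin receptor, rose by 1.93 (adjusted p = 0.00638) and 2.69 (adjusted p = 1.67e-05), and Lgr6 by 1.08 (adjusted p = 0.0486) and 1.36 (adjusted p = 0.00161). Rspo3 was the only R-spondin gene that passed the filter, and it did not pass the test. Of the 5 secreted Frizzled-related proteins, which bind Wnt ligands outside the cell, Sfrp1 rose by 1.22 (adjusted p = 0.0132) under the KO label and no other was called under either label. In normal tissue, between the KO-8 tumor groups, between the hetero groups and in the interaction, 0 members of these lists were called.

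**Figure D5:**
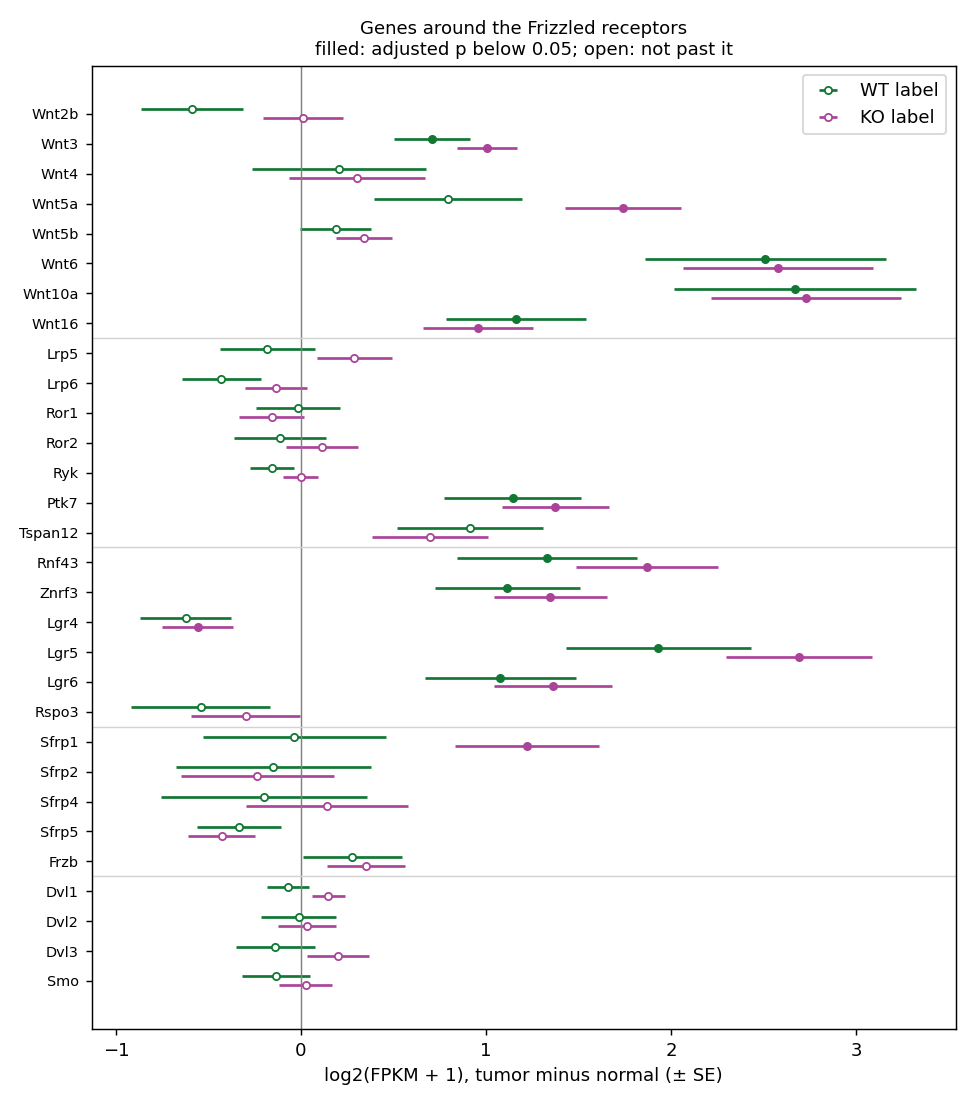
Difference between tumor and normal tissue on the log2(FPKM + 1) scale with its standard error for the ligands, co-receptors, turnover genes, secreted inhibitors and transducers that passed the filter, by genotype label; filled points passed a limma adjusted p of 0.05. The values range from -0.62 (Lgr4, WT label) to 2.73 (Wnt10a, KO label), and Rnf43, Znrf3, Lgr5, Lgr6, Wnt3, Wnt6, Wnt10a, Wnt16 and Ptk7 are filled under both labels.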

How the data were processed

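RNA-seq of mouse colorectal tissue gave 24 libraries (14 tumor, 10 normal), grouped by the genotype label and the sample titles. The authors deposited 1 table of FPKM values per library, per the file headers. Extraction used a miRNeasy kit and library construction a stranded TruSeq mRNA kit, per the labels' protocols. The submitters' processing notes name TopHat2 2.1.1, Bowtie2 2.2.8, SAMtools 0.1.18, Cuffdiff 2.2.1 and the build mm10, with no role or order. Count models were not applied to these FPKM values, and fragment totals are unknown. Relative depth was read from the steps between low values of 9243 genes and ran from 0.683 to 1.87 times the median library, so values of low genes are less precise in shallow libraries.

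Values were taken as log2(FPKM + 1), a pseudocount of 1, with no further scaling, and 13799 genes with at least 1 FPKM in at least 4 libraries were kept. limma 3.58.1 in R 4.3.3 (lmFit, contrasts.fit, eBayes with trend) was fitted to all 24 libraries, two-sided, with Benjamini-Hochberg adjustment over all kept genes and a threshold of 0.05. One model held the 4 combinations of genotype label and tissue, and another the 10 title groups. Promoter sequences came from RefSeq and gene positions from GENCODE M21. Python 3.11.15, numpy 2.4.6 and pandas 2.3.3 were used for the rest, and the fits were tested on simulated data.

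The members, the gene lists and the contrasts were chosen with earlier results of these data known. All 10 members are named. Of each pathway list, up to 3 members with the smallest p past the threshold are named, with Rnf43, Znrf3, Lrp5, Lrp6, Ndp and Tspan12. Maf and Xist serve as checks. Wnt16, Lgr4 and Lgr6 were also named after their values were seen. The nearest genes by Pearson's r are 5 for Fzd1 over tumors (1 is not reported here), 5 over all libraries and 2 for each other member that passed the filter. Tests of Fzd1 between tumor and normal tissue and between KO-labelled tumor groups had been planned. They were withheld, because they use the tumors for which the gene was noticed.

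The alternatives were a pseudocount of 0.1, no filter, median-ratio scaling between libraries, eBayes without a trend, equal weights for the title groups, leaving out the WT-old libraries or those with Xist of at least 1 FPKM, a replicate block, and leaving out each library. Deviations of same-numbered tumor and normal libraries of a name correlated with both signs. The main fits took the numbers as no pairing, though this does not exclude one.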

Additional observations from a re-analysis of the deposited data

Results flagged for a closer look

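KO-8-hetero tumor replicate 2 stood far above the other 8 KO-labelled tumors in 2 members, with Fzd4 at 4.49 FPKM and Fzd6 at 16.4 FPKM. WT-young normal replicate 2 stood above the other 3 WT-labelled normal libraries in Fzd7, at 5.75 FPKM. WT-young tumor replicate 4 stood below the other 3 WT-young tumors in Fzd10, at 0.926 FPKM. A gap test of single libraries was made in 50 sets of values and marked these 4, and chance alone marks about 1 in 20.

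The tumor-normal difference of Fzd10 had opposite signs by name. It was 0.74 in WT-young, 1.31 in KO-8-homo, 1.31 in KO-8-hetero and 0.49 in KO-1-hetero, where every tumor was above both normal libraries, and -0.30 in WT-old, where the 1 tumor was below both. For Fzd3 it was -0.38 in KO-8-homo and 0.18 in KO-8-hetero, with every tumor on opposite sides of the normal libraries. These differences between names were not tested.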

How the results depend on the processing

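Across 8 alternatives and the fits without 1 library, the falls of Fzd5 and Fzd8 under both labels and the rise of Fzd10 under the KO label passed the test in every setting run. Fzd10 entered every setting but the one without a filter through its tumors alone. The count of members called stayed at 2 to 3 under the WT label and 3 to 4 under the KO label, and was 0 in normal tissue, between the KO-8 groups and in the interaction. Between the hetero tumor groups, KO-1 and KO-8, it ranged from 0 to 2 when 1 library was left out, the 2 arising without KO-8-hetero tumor replicate 3. The calls of Fzd9 under the WT label and of Fzd6 under the KO label did not hold throughout. With a pseudocount of 0.1, without a filter and with equal weights the adjusted p of Fzd9 was 0.0569, 0.0825 and 0.0544, and without a filter that of Fzd6 was 0.0572. The cause was not tested. The difference of Fzd1 between KO-labelled and WT-labelled tumors was 0.72, and 0.65 to 0.82 over the alternatives and 0.65 to 0.80 without 1 library.

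Small differences that were not called changed sign. Without the libraries of high Xist these were Fzd4 (-0.25) and Fzd7 (0.20) between KO-labelled tumor and normal tissue, and Fzd5 (0.16) between labels in normal tissue, where Fzd2 was -0.23 without the WT-old libraries. Without 1 library, the tumor-normal difference of Fzd7 ranged from -0.178 to 0.0574 under the WT label and from -0.110 to 0.0372 under the KO label. Under the KO label that of Fzd2 ranged from -0.171 to 0.0191 and that of Fzd4 from -0.0439 to 0.199. Between labels in normal tissue Fzd2 ranged from -0.0605 to 0.481. Fzd6 between KO-8-homo and KO-8-hetero tumors ranged from -0.878 to 0.0438. Fzd1 between the hetero tumor groups, given without a test, ranged from -0.188 to 0.0767.

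The number of all genes called moved more. It was 4192 in WT-labelled tumors against normal tissue and 2682 without the WT-old libraries, and 6520 under the KO label and 3670 without the high-Xist libraries. With equal weights for the title groups the interaction gave 218 genes in place of 0, and the labels in normal tissue 7 in place of 0. Between KO-8-homo and KO-8-hetero tumors 7 genes were called, and 0 to 342 without 1 library. Between the hetero tumor groups 0 were called, and as many as 160 without KO-8-hetero tumor replicate 3.

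With the replicate number as a block (consensus correlation 0.0245) the counts of members called between tumor and normal tissue were 3 under the WT label and 4 under the KO label, with 0 in the other 4 tests, and Fzd1 between the labelled tumors was 0.72. The correlation of deviations of same-numbered tumor and normal libraries ranged from -0.16 to 0.35 over 8 pairs, with both signs. With 2 normal libraries per name their deviations mirror each other, so these values cannot exclude a pairing. In KO-1-hetero and KO-8-hetero, tumor replicates 1 and 2 had low Xist and normal replicates 1 and 2 high Xist.

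Members near or below 1 FPKM (Fzd3, Fzd9 and Fzd10 in normal tissue) rest on few fragments, and the number of fragments is unknown. Each WT-old tumor value rests on 1 library.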
